A study of Selenicereus undatus with 4 samples.

Results

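The genes described here are 7 unigenes (assembled transcripts) of pitaya whose annotation names a zinc finger protein CONSTANS-LIKE (COL), out of 11051 unigenes in the deposited comparison of the stages NL and L2. They were chosen by identifier, and the same table holds 11 unigenes with CONSTANS in their annotation, the other 4 of which are given beside them. From NL to L2, 4 of the 7 fell between 3.76-fold and 38.6-fold and 3 rose between 3.91-fold and 5.36-fold. The falling unigenes are Unigene0028118 (CONSTANS-LIKE 4), Unigene0025406 and Unigene0029386 (both CONSTANS-LIKE 2) and Unigene0035131 (CONSTANS-LIKE 6-like). The rising unigenes are Unigene0027129 and Unigene0035118 (both CONSTANS-LIKE 15) and Unigene0050191 (CONSTANS-LIKE 6 isoform X1).

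The plants were pitaya (Selenicereus undatus, described by the submitters as Hylocereus undatus) of the red-fleshed cultivar 'Jindu No.1', grown for 1 year in the field in Hainan. The authors' paper instead names the species Hylocereus polyrhizus. RNA was taken from stem tissue around the thorn seat, the areole from which buds emerge. The authors' methods also mention that buds of similar size were harvested, so the L2 samples can hold bud tissue beside stem. NL plants received no supplementary light and did not flower, and L2 plants received light at night in winter and were sampled 1 week after the bud stage. Each stage had 3 libraries, each from several plants mixed, and the L0 and L1 stages were not analysed here. Both the light and the presence of a bud differ between NL and L2, so their parts in a change cannot be told apart. The authors' methods give no hour of sampling for either stage, so a difference in time of day cannot be separated from these. In RNA from whole tissue, fewer cells of a type and less RNA per cell cannot be told apart either.

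CONSTANS (CO) is the transcription factor through which Arabidopsis reads long days. It is produced late in the day, its protein is stable only in light, and it then switches on FLOWERING LOCUS T (FT), the gene of the mobile flowering signal. CO and the COL proteins carry B-box zinc fingers near one end and a CCT domain, which contacts DNA and nuclear factor Y subunits, at the other, and individual COL genes have been reported in Arabidopsis to promote, delay or not affect flowering.

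Values are RPKM, reads scaled to the length of the unigene in kilobases and to the size of the library, so that levels of different unigenes can be compared. An NL library held between 3860701 and 5269237 reads, and an L2 library between 5803177 and 7533457. Differences were tested with limma on log2(RPKM + 0.1), and a unigene was called at an adjusted p of at most 0.05. All 7 were called, but so were 99.3% of the tested unigenes, 63.0% as higher and 36.3% as lower in L2, because the table lists only unigenes that its authors had already called between these stages. The calls of the 7 are therefore a description, and a COL gene that is not in the table may or may not have changed.

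Markers of the tissue moved with the stages. The libraries of both stages expressed the green stem list (chlorophyll a-b binding proteins and the Rubisco small subunit), whose summed level was 3767, 3783 and 4652 RPKM in NL and 647, 1544 and 991 RPKM in L2. Of its 20 unigenes, 17 were lower, 0 higher and 3 not called, against 36.3% lower and 63.0% higher in the table. The Rubisco small subunit (Unigene0023440) was not called, at 12.5, 178 and 12.4 RPKM in NL and at 7.99, 12.3 and 19.4 RPKM in L2. The unigenes with the highest mean over the 6 libraries (Unigene0032585 and Unigene0032586) went from 946 to 426 RPKM and from 548 to 251 RPKM. Their falls were the smallest of the list by log2 change. The floral organ list (AGAMOUS, SEPALLATA and related genes) summed to 18.7, 27.7 and 32.0 RPKM in NL and to 218, 182 and 275 RPKM in L2. Of its 12 unigenes, 11 were higher and 1 lower, against 63.0% and 36.3% of the table. Taken by words in the annotation, it also holds an AGL12 unigene (Unigene0025394) and an APETALA 2-like unigene with the symbol TOE3 (Unigene0038086), both higher. The lower one, an AGL19 unigene with the symbol SOC1 (Unigene0027094), made up most of the NL sums. It was at 15.9, 21.4 and 21.4 RPKM in NL and at 9.22, 4.85 and 4.39 RPKM in L2. A SEPALLATA 1 unigene (Unigene0047380), the most abundant floral organ unigene of L2, had no read in any NL library. Another unigene described as SEPALLATA 1 (Unigene0039666) went from 28 reads in NL to 724 reads in L2, and AGAMOUS (Unigene0027919) went from 1.16 to 56.6 RPKM. These are shifts in transcript levels. Less green tissue and lower expression of the listed genes, under the other light regime or for another reason, cannot be told apart. What either contributed to the changes of the COL unigenes was not tested. The COL levels are therefore also given below relative to the green stem sum of their own library. That ratio was added after the data had been seen and carries the same limit.

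Unigene0028118 was the most abundant COL unigene in both stages. COL4, the Arabidopsis gene whose symbol it carries, has been reported as a repressor of flowering. Its level was 246, 214 and 285 RPKM in NL replicates 1 to 3 and 51.9, 81.4 and 65.0 RPKM in the L2 replicates. The stages did not overlap, and the lowest NL library was 2.63-fold above the highest L2 library. The mean fell 3.76-fold, from 248 ± 35.6 to 66.1 ± 14.8 RPKM (SD, n = 3), a log2 change of -1.92 (SE 0.21, limma adjusted p = 0.000143). That fall was larger than those of 36.2% of the unigenes that were lower in L2. By mean level it ranked 132nd among all listed unigenes in NL and 657th in L2. As a percent of the green stem sum it was 6.54, 5.65 and 6.12 in NL and 8.03, 5.27 and 6.56 in L2, so that on this scale the stages overlapped and the log2 difference was 0.10 (95% interval -0.64 to 0.83, limma adjusted p = 0.799).

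**Figure D1:**
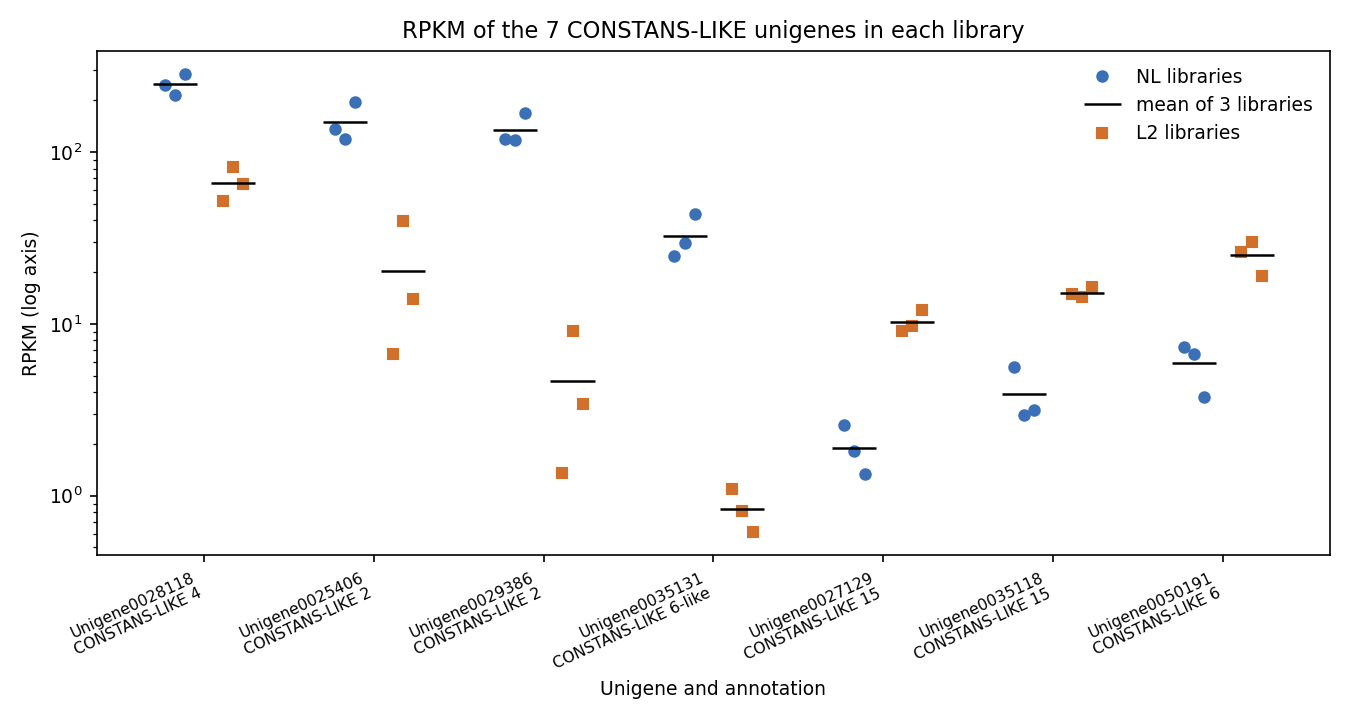
RPKM (log axis) of the 7 CONSTANS-LIKE unigenes in each of 3 NL libraries (circles) and 3 L2 libraries (squares), with lines at the means. The stages do not overlap for any of the 7, as for 97.6% of the listed unigenes. The L2 points of both CONSTANS-LIKE 2 unigenes spread more widely than those of the others.

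Unigene0025406 and Unigene0029386 share the annotation CONSTANS-LIKE 2 and the symbol COL2, a close relative of CO in Arabidopsis, and were similar in NL. Unigene0025406 was at 136, 119 and 195 RPKM in NL and at 6.68, 39.8 and 14.0 RPKM in L2. Unigene0029386 was at 119, 116 and 168 RPKM in NL and at 1.36, 9.10 and 3.41 RPKM in L2. For both, every NL library lay above every L2 library, and L2 replicate 2 was the highest and L2 replicate 1 the lowest of the L2 libraries. Unigene0025406 fell 7.44-fold, from 150 ± 40.0 to 20.2 ± 17.4 RPKM (SD, n = 3), a log2 change of -3.23 (SE 0.57, limma adjusted p = 0.00119). Unigene0029386 fell 29.1-fold, from 135 ± 28.9 to 4.63 ± 4.01 RPKM (SD, n = 3), a log2 change of -5.20 (SE 0.59, limma adjusted p = 0.000151). The pair shares an annotation, so reads that matched both unigenes could have been assigned to either.

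The spread of the CONSTANS-LIKE 2 pair within L2 was wide. The highest L2 library was 5.96-fold above the lowest for Unigene0025406 and 6.68-fold for Unigene0029386. Among the 2586 listed unigenes that were lower in L2 and kept a mean of at least 1 RPKM there, this quotient had a median of 1.70 and a 90th percentile of 3.31. L2 replicate 2 stood at 3.85 times the mean of the other L2 libraries for Unigene0025406 and at 3.81 times for Unigene0029386. The same quotient was 1.89 for the green stem sum, 1.39 for Unigene0028118, 0.738 for the floral organ sum and 0.961 for the median listed unigene, so L2 replicate 2 was also the L2 library with the most green stem and the least floral organ signal. The part of that difference in the spread was not tested. Without L2 replicate 2 the log2 change was -3.91 for Unigene0025406 and -5.87 for Unigene0029386, and without L2 replicate 1 it was -2.63 and -4.55, each still called. Relative to the green stem sum, the pair still fell, Unigene0025406 by 2.18-fold from 3.65% to 1.68% (limma adjusted p = 0.0171) and Unigene0029386 by 8.61-fold from 3.29% to 0.382% (limma adjusted p = 5.87e-05).

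While the levels of the pair varied between L2 libraries, their ratio did not vary much. Unigene0025406 was 1.14, 1.02 and 1.16 times Unigene0029386 in the NL libraries and 4.90, 4.37 and 4.11 times in the L2 libraries. The ratio was thus close to equal in NL, and each L2 library lay above each NL library. On RPKM + 0.1 its log2 shift was 1.97 (SE 0.08, 95% interval 1.74 to 2.20). The exact permutation test over libraries gave p = 0.1, the smallest that 3 libraries against 3 allow (adjusted p = 0.15 over the 3 pairs compared). Being a ratio within a library, it does not depend on how the libraries are scaled, and it does not show which of the pair departed.

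Unigene0035131 is described as CONSTANS-LIKE 6-like and carries the symbol COL16, so its closest relative differs between the annotation sources. Its level was 24.7, 29.6 and 43.2 RPKM in NL and 1.10, 0.816 and 0.611 RPKM in L2. It fell 38.6-fold, the steepest fall in mean RPKM of the 7, from 32.5 ± 9.62 to 0.842 ± 0.245 RPKM (SD, n = 3), a log2 change of -5.11 (SE 0.36, limma adjusted p = 4.3e-05). The L2 level rests on 28 reads in all, against 767 in NL. The fall was larger than those of 87.5% of the unigenes lower in L2, and relative to the green stem sum it was 8.32-fold, from 0.789% to 0.0949% (limma adjusted p = 0.000286). In L2 it was the least abundant of the 11 COL unigenes.

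The rising unigenes started low. Unigene0050191, described as CONSTANS-LIKE 6 isoform X1 with the symbol COL5 (a gene that can raise FT in Arabidopsis when overexpressed), was at 7.30, 6.67 and 3.75 RPKM in NL and at 26.3, 30.0 and 19.1 RPKM in L2. Its mean rose 4.25-fold, from 5.91 ± 1.89 to 25.1 ± 5.57 RPKM (SD, n = 3), a log2 change of 2.10 (SE 0.32, limma adjusted p = 0.000561). In L2 it was the 2nd most abundant COL unigene, although its range there overlapped that of Unigene0025406.

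Unigene0027129 and Unigene0035118 are both described as CONSTANS-LIKE 15, with the symbols COL14 and COL15. Unigene0027129 was at 2.58, 1.81 and 1.33 RPKM in NL and at 9.07, 9.66 and 12.0 RPKM in L2. It rose 5.36-fold, from 1.91 ± 0.628 to 10.2 ± 1.53 RPKM (SD, n = 3), a log2 change of 2.40 (SE 0.36, limma adjusted p = 0.00058). Its NL level rests on 44 reads, the fewest of the rising unigenes. Unigene0035118 was at 5.58, 2.94 and 3.15 RPKM in NL and at 14.9, 14.3 and 16.4 RPKM in L2, and its L2 libraries lay within 1.15-fold of each other. It rose 3.91-fold, from 3.89 ± 1.47 to 15.2 ± 1.07 RPKM (SD, n = 3), a log2 change of 2.00 (SE 0.31, limma adjusted p = 0.000647).

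Relative to the falling green stem sum, the rises were larger, 22.3-fold for Unigene0027129, 16.7-fold for Unigene0035118 and 17.6-fold for Unigene0050191. The log2 changes of the 3 rising unigenes, 2.00 to 2.40, lie near the median of 2.31 of all unigenes called higher in L2, so their size does not set them apart from the table. With size factors that centre the table on other unigenes, the rises were smaller, with log2 changes down to 0.88 for Unigene0035118 (DESeq2 adjusted p = 0.0203), 1.04 for Unigene0050191 and 1.34 for Unigene0027129. They stayed above 0 and past the threshold there. Such factors (TMM, DESeq2) take most unigenes as unchanged. They were computed from the listed unigenes alone, of which 99.3% were called, so that assumption is not met here.

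**Figure D2:**
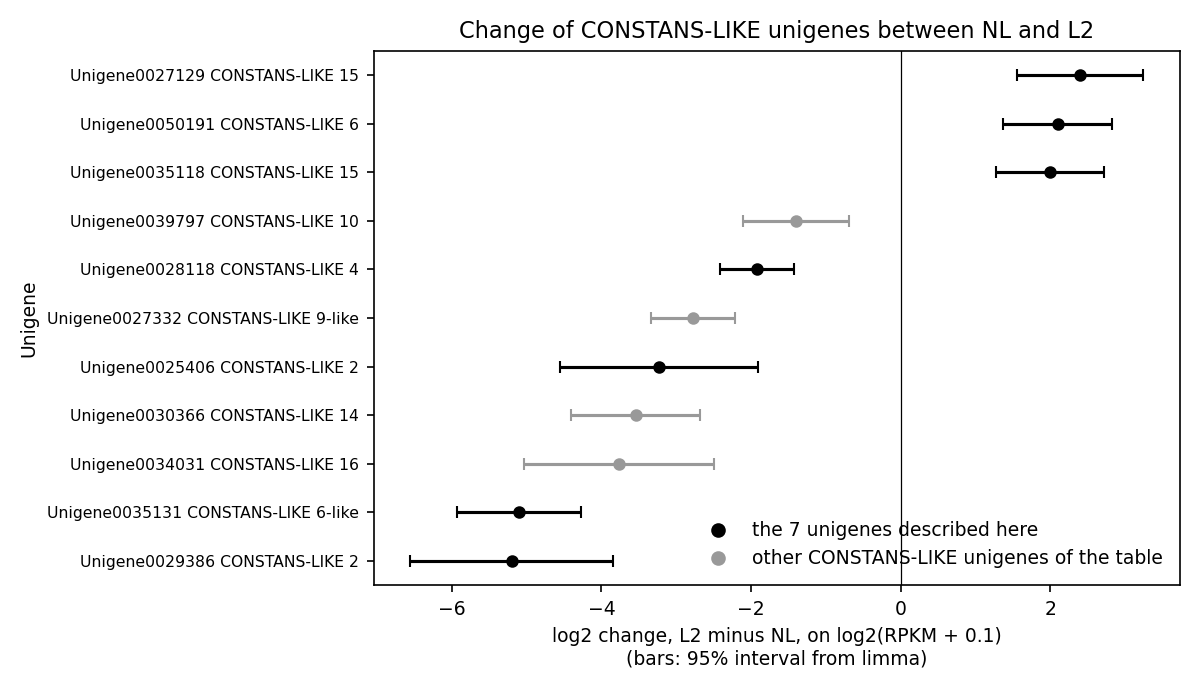
Log2 change from NL to L2 on log2(RPKM + 0.1) of the 11 unigenes annotated CONSTANS, with 95% intervals from limma, the 7 described here in black and the other 4 in grey. The 3 rising unigenes lie between 2.00 and 2.40 and the 8 falling ones between -5.20 and -1.40, with no interval reaching 0.

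Unigenes described with the same CONSTANS-LIKE number did not always move together. The number is that of the description alone, and within the number 6 the symbols differ (COL16 and COL5), so these may not be paralogs of the same number. In that pair, Unigene0035131 was 3.38, 4.44 and 11.5 times Unigene0050191 in the NL libraries and 0.0418, 0.0272 and 0.0320 times in the L2 libraries. The pair thus exchanged its order in every library, with a log2 shift of the ratio of -7.21 on RPKM + 0.1 (SE 0.56; exact permutation test, p = 0.1, adjusted p = 0.15). Within the number 15, Unigene0027129 was 0.461, 0.618 and 0.423 times Unigene0035118 in NL and 0.607, 0.676 and 0.730 times in L2. Here the stages overlapped, and the log2 shift of 0.40 had a 95% interval of -0.09 to 0.89 (SE 0.18; exact permutation test, p = 0.2, adjusted p = 0.2), so a shift of up to that size is not excluded by these libraries.

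**Figure D3:**
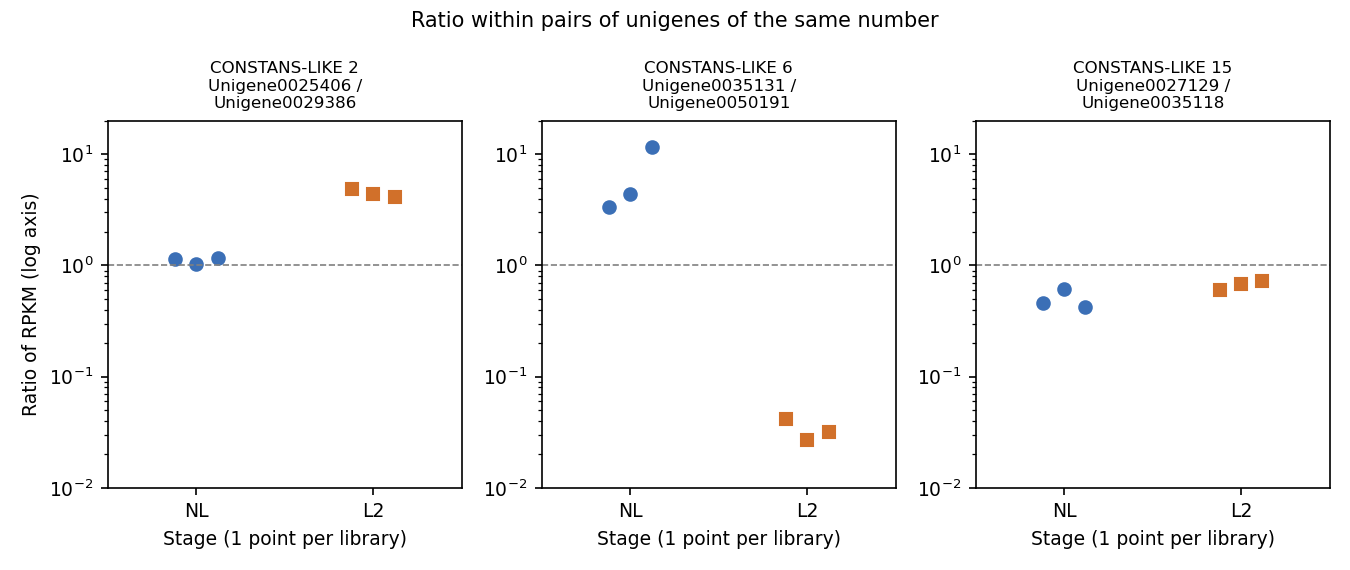
Ratio of RPKM (log axis) within the 3 pairs of unigenes that share a CONSTANS-LIKE number in their description, 1 point per library, with a dashed line at equal levels. The CONSTANS-LIKE 2 pair moves from near 1 to above 4, the CONSTANS-LIKE 6 pair crosses from above 3 to below 0.05, and the CONSTANS-LIKE 15 pair overlaps between the stages.

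Summed over the 7, the level was 542, 490 and 699 RPKM in NL and 111, 185 and 130 RPKM in L2, a 4.06-fold fall in the mean. The exact permutation test over libraries gave p = 0.1, the smallest possible. The 4 falling unigenes summed to 565 ± 111 RPKM in NL and 91.7 ± 35.8 RPKM in L2 (SD, n = 3), and the 3 rising ones to 11.7 ± 3.63 and 50.6 ± 3.29 RPKM. The gain of the rising unigenes in RPKM was thus small beside the loss of the others. The green stem sum fell 3.84-fold over the same libraries, and as a percent of it the falling unigenes went from 13.8% to 8.77% and the rising ones from 0.296% to 5.35%.

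What the 7 contributed to their sum changed with the stage. The rising unigenes made up 2.85%, 2.33% and 1.18% of it in the NL libraries and 45.2%, 29.2% and 36.3% in the L2 libraries. Unigene0028118 kept a similar share, with means of 43.3% in NL and 46.8% in L2, while Unigene0025406 went from 25.7% to 12.7% and Unigene0029386 from 23.3% to 2.92%. In L2 replicate 2, where the CONSTANS-LIKE 2 pair was highest, the share of the rising unigenes was lowest. These shares are quotients within a library and do not depend on scaling between libraries.

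**Figure D4:**
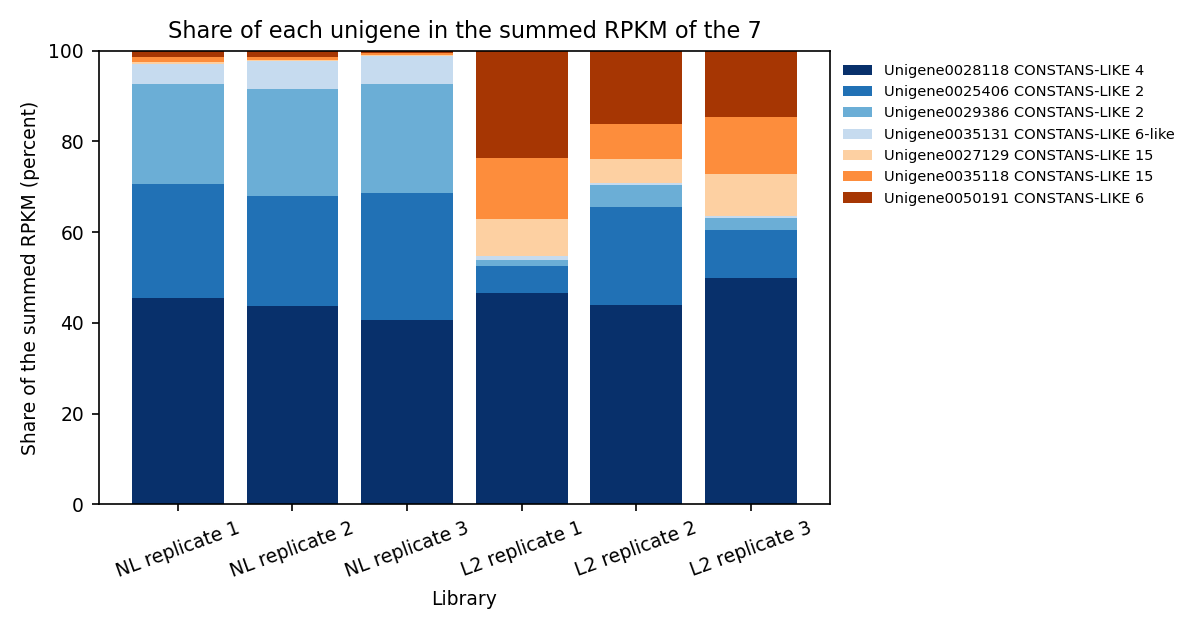
Share of each of the 7 unigenes in their summed RPKM (percent) in each library, falling unigenes in blue and rising ones in orange. The orange part is 1.18% to 2.85% of the NL bars and 29.2% to 45.2% of the L2 bars, while the darkest blue part, Unigene0028118, lies between 40.7% and 49.8% in all 6.

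**Figure D5:**
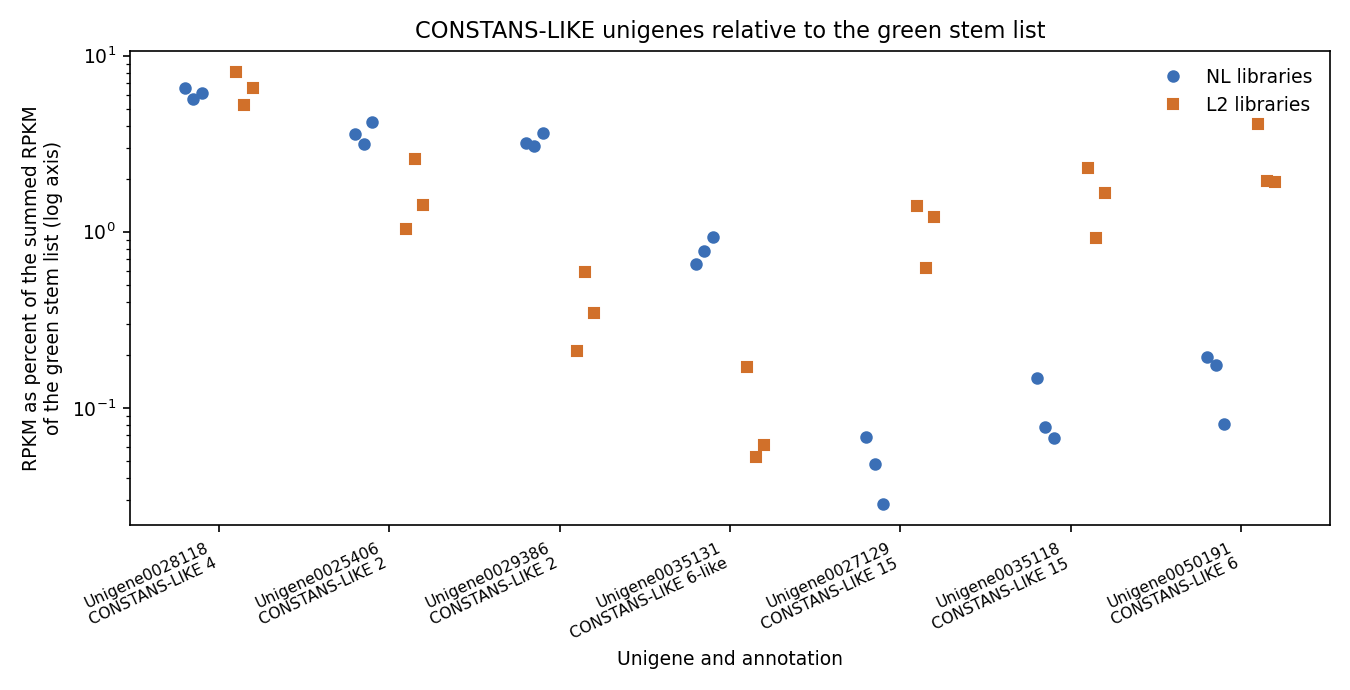
RPKM of each of the 7 unigenes as a percent of the summed RPKM of the green stem list in the same library (log axis), for 3 NL and 3 L2 libraries. Unigene0028118 overlaps between the stages, while the other falling unigenes stay lower and the rising ones stay higher in L2.

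The order of the COL unigenes differed between the stages. In NL, Unigene0028118 stood above all others in every library, followed by Unigene0027332, Unigene0025406 and Unigene0029386, whose ranges overlapped, and Unigene0027129 was lowest. In L2, Unigene0028118 was again first in every library. Next came Unigene0050191, Unigene0027332, Unigene0025406 and Unigene0035118, each overlapping with its neighbour in the order, and Unigene0035131 was last with a range that overlapped that of Unigene0034031.

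The other 4 unigenes annotated CONSTANS all fell. Unigene0027332 (CONSTANS-LIKE 9-like, with the symbol of the B-box gene BBX32) went from 153 to 23.0 RPKM (log2 change -2.78). Relative to the green stem sum its log2 change was -0.76 and no longer called (limma adjusted p = 0.0633). Unigene0030366 (CONSTANS-LIKE 14) went from 19.7 to 1.52 RPKM (-3.54) and Unigene0034031 (CONSTANS-LIKE 16) from 13.2 to 0.920 RPKM (-3.77). Relative to the green stem sum both stayed lower, with log2 changes of -1.57 (limma adjusted p = 0.0293) and -1.85 (limma adjusted p = 0.0136). Unigene0039797 (CONSTANS-LIKE 10) showed the smallest fall, from 7.55 to 2.79 RPKM (-1.40), and relative to the green stem sum its stages overlapped (log2 difference 0.58, limma adjusted p = 0.323). Of the 11, 8 were thus lower and 3 higher, with a median log2 change of -2.78, against 1.43 for all listed unigenes, of which 36.3% were called lower. In all 11 the stages were fully separate, as in 97.6% of the table.

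Genes that in Arabidopsis act upstream of CO were mostly lower in L2. Of 7 listed, 5 fell and 2 rose, with a median log2 change of -3.05, in a table of which 36.3% was called lower and 63.0% higher and beside a green stem sum that fell 3.84-fold. FKF1 (Unigene0045624), the blue light receptor that removes CDF repressors, was at 119, 125 and 83.2 RPKM in NL and at 7.84, 22.3 and 12.1 RPKM in L2 (log2 change -3.05, limma adjusted p = 0.000204). Cyclic dof factor 1 (Unigene0031426), of the CDF repressors of CO and FT, was at 70.5, 76.3 and 109 RPKM in NL and at 1.81, 5.25 and 4.16 RPKM in L2 (-4.57, limma adjusted p = 6.1e-05). Every L2 library lay below every NL library for both, and L2 replicate 2 was the highest of the L2 libraries for both, as it was for the CONSTANS-LIKE 2 pair. Further cyclic dof factor unigenes also fell, Unigene0033003 (log2 change -3.42) and Unigene0026114 (-1.97), so the falling members include repressors of CO as well as FKF1. The GIGANTEA unigene (Unigene0050242), of 278 nt, had 18 reads in NL and 2 reads in L2. The rising members were a cyclic dof factor 2 unigene (Unigene0029432) and ZEITLUPE (Unigene0038201), a relative of FKF1. This count of 2 became 1 with TMM or DESeq2 scaling.

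The list of light receptors and of the ligase that degrades CO protein in darkness had 5 of 5 unigenes lower, against 36.3% of the table, with a median log2 change of -1.43. These falls were smaller than that of the green stem sum (3.84-fold) except for SPA1-RELATED 4, which fell 4.69-fold. SPA1-RELATED 4 (Unigene0046165), a partner of COP1, went from 49.7 to 10.6 RPKM (log2 change -2.22, limma adjusted p = 7.1e-05). COP1 itself (Unigene0038972) went from 31.0 to 14.5 RPKM (-1.11, limma adjusted p = 0.00101). The stages did not overlap in either. The only receptor entries of the list were phytochrome B (Unigene0002396, log2 change -1.54) and a cryptochrome DASH unigene (Unigene0039914, -1.24). The latter was taken by the word cryptochrome, and a role in the control of CO was not examined.

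The list of partners on DNA, nuclear factor Y subunits and TOPLESS proteins, went both ways. It had 4 of 9 higher and 5 lower, against 63.0% higher and 36.3% lower in the table. The higher ones were TOPLESS (Unigene0006377), topless-related protein 3 (Unigene0049463) and subunit B-3 unigenes (Unigene0026233 and Unigene0039915). The lower ones were subunit A and C unigenes. The paper cites a complex of TOPLESS with CDF repressors on the CO and FT promoters, so the list also holds partners of repression. The nuclear factor Y subunit C-3 unigene (Unigene0033901), which belongs to a family that binds the CCT domain in Arabidopsis, went from 118 to 52.4 RPKM (log2 change -1.16, limma adjusted p = 0.000331). Subunit B-3 (Unigene0026233) went from 21.9 to 45.3 RPKM (1.03, limma adjusted p = 0.00334). That rise was lost with TMM scaling (log2 change 0.18) and its sign turned with DESeq2 size factors (-0.05). The higher count of 4 became 2 with TMM and 1 with DESeq2, so how many of the list rose depends on the scaling. Both scalings were computed from the listed unigenes alone, nearly all of them called, so they do not show which count is right.

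Of the targets of CO, 2 FT-type unigenes were listed and moved in opposite directions. The HEADING DATE 3A-like unigene (Unigene0019970), named after the rice florigen, was at 17.6, 32.6 and 26.6 RPKM in NL, from 308 reads, and had 0 reads in the L2 libraries. Against a floor of 3 reads over the L2 stage it was at least 146-fold lower there (limma adjusted p = 3.4e-05). The flowering locus T-like unigene (Unigene0000385) had 2 reads in NL and 33 reads in L2, where it stood at 1.10, 5.35 and 4.99 RPKM (limma adjusted p = 0.0101), and this call was lost with TMM and DESeq2. Its NL level rests on 1 library, and no fold is drawn from it.

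The unigenes closest to each of the 7 in their pattern over the 6 libraries were taken as those with the smallest Euclidean distance in log2(RPKM + 0.1) after centring, among about 6172 annotated unigenes. Nearest to Unigene0028118 were Unigene0034603 (distance 0.21), which has no functional name, and an LNK1 unigene (Unigene0050741, distance 0.22), named after a co-activator of the Arabidopsis clock, which went from 136 to 36.3 RPKM. Nearest to Unigene0025406 were an inorganic pyrophosphatase 2-like unigene (Unigene0037386, distance 0.51) and the light-harvesting protein CP26 (Unigene0030799, distance 0.56), itself part of the green stem list. Unigene0029386 lay farther from any other unigene, with a codeine O-demethylase unigene (Unigene0025224) at 0.67 and the BTB and TAZ domain gene BT2 (Unigene0048805) at 0.92.

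Nearest to Unigene0035131 were plastid enzymes, the DXR reductoisomerase of isoprenoid synthesis (Unigene0027854, distance 0.62) and fructose-1,6-bisphosphatase of the Calvin cycle (Unigene0046079, distance 0.74). Nearest to the rising unigenes were a thioredoxin domain-containing protein 9 homolog (Unigene0041809, 0.21) and HHP1 (Unigene0046111, 0.27) for Unigene0027129, and inositol transporter 1 (Unigene0040553, 0.15) and a GMP synthase (Unigene0039216, 0.28) for Unigene0035118. For Unigene0050191 they were a phospholipase A1 (Unigene0053479, 0.28) and a TauE domain protein (Unigene0044761, 0.28). The neighbours of the falling unigenes fell and those of the rising unigenes rose by similar amounts, which the choice by distance fixes.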

How the data were processed

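RNA-seq of 6 libraries (NL and L2, 3 each) was used. The authors assembled the reads with Trinity and mapped them to unigenes with Bowtie2. The versions and the counting tool are not given in the sources used here. The authors deposited RPKM per library, normalized for unigene length and library total, and mean read counts per stage, which are estimated counts only in not being whole. They also deposited a log2 ratio, a p-value and an FDR of their own comparison, which were not used. Only unigenes that passed the authors' thresholds (FDR 0.05, and 1 for the absolute log2 ratio) are listed. No column of values per library was left out. GEO's labels give 1 sample per stage, and the replicates are the 3 RPKM columns of each. As each mixed several plants, p-values measure the spread between such mixtures.

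Reads per library, library totals and unigene lengths were recovered from RPKM and mean counts. All of the 59302 values above 0 came out whole within 0.05. Bounds against 0 reads cover counting error only.

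The stages were compared with limma 3.58.1 (R 4.3.3, trend, two-sided) on log2(RPKM + 0.1), adjusted by Benjamini-Hochberg over 11051 unigenes. Sums and ratios were compared by two-sided exact permutation tests. Fold changes are ratios of mean RPKM, and log2 changes are on the log2(RPKM + 0.1) scale, which understates changes of unigenes at low levels. Alternatives were pseudocounts of 1 and 0.01, keeping unigenes that reached an RPKM of 1 in 3 or more libraries, a replicate block, leaving out each library, and edgeR 4.0.16 (quasi-likelihood) with library totals or TMM and DESeq2 1.42.0 on the recovered reads. TMM and DESeq2 factors were computed from the 11051 listed unigenes alone. Dividing by the green stem sum was added after the data had been seen. The scripts were tested on simulated data. The remaining calculations were done in scipy 1.17.1, pandas 2.3.3 and numpy 2.4.6 (Python 3.11.15), with plots in matplotlib 3.10.9.

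The members and lists were chosen with earlier results of these data known. Lists were taken by words in the annotation. Named genes were the 7 members, the other 4 annotated CONSTANS, the 2 most abundant genes of each list, and the 2 annotated unigenes nearest to each member whose mean RPKM reached 1 in each stage. Cyclic dof factor 2, ZEITLUPE, AGL19, Unigene0039666, phytochrome B, cryptochrome DASH, and the B-box genes beyond the 2 most abundant, were named after their values were seen. So were cyclic dof factor 3-like, GIGANTEA, TOPLESS, topless-related protein 3, Unigene0039915, AGL12, Unigene0038086 and the Rubisco small subunit.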

Additional observations from a re-analysis of the deposited data

How the results depend on the processing

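The table lists only unigenes already called between these stages, so a kept call is mostly a description. With edgeR and library totals, 7010 of the 11051 listed unigenes were called higher and 4041 lower. The 7 unigenes kept their direction and call in 97 of 98 values under an alternative, and the exception was Unigene0028118 relative to the green stem sum (0.10). That ratio, added after the data had been seen, also turned the sign of Unigene0039797 (0.58) and brought the log2 ratio of the summed 7 from -2.02 to 8.5e-05, since the summed 7 and the green stem sum fell alike. The summed ratio was -2.88 with TMM and -3.09 with DESeq2 scaling, and -2.25 to -1.86 leaving out each library. The CONSTANS-LIKE 2 shift was 1.68 with a pseudocount of 1 and 1.91 to 2.02 leaving out each library. The CONSTANS-LIKE 6 shift was -6.09 and -7.56 to -6.69, and the CONSTANS-LIKE 15 shift 0.20 and 0.30 to 0.56. DESeq2 turned Unigene0026233 to -0.045. Scaling moved the median log2 change of all listed unigenes by -0.84 (TMM), -1.07 (DESeq2), -0.24 (pseudocount 1) and 1.97 (green stem sum). Calls of higher unigenes went from 6967 to 4268 with TMM and 2779 with DESeq2, and calls of lower ones were 4007, 4041 and 4021. With the green stem sum 7071 were called higher and 1147 lower. With the replicate block, 6902 were called higher and 3992 lower, the 7 log2 changes were the same and all 7 stayed called. Same-numbered libraries correlated at 0.035, 0.023 and 0.060 in their deviations from the stage means, so the numbers were not taken to pair them. The depth limits Unigene0035131 in L2 (28 reads) and Unigene0027129 in NL (44 reads).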

Other observations

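Other B-box zinc finger genes, relatives of the COL genes that lack the CCT domain, also went both ways, with 6 of 9 lower and 3 higher in L2, against 36.3% and 63.0% of the table, and a median log2 change of -1.44. The most abundant in NL was a BBX32 unigene (Unigene0009720), named after a regulator of light signalling in Arabidopsis, at 174, 143 and 216 RPKM in NL and at 15.0, 8.73 and 12.7 RPKM in L2 (log2 change -3.88, limma adjusted p = 3.8e-05). A BBX24 unigene (Unigene0034673) was at 45.1, 48.9 and 63.0 RPKM in NL and at 11.7, 33.4 and 17.5 RPKM in L2 (-1.44, limma adjusted p = 0.00589), again with L2 replicate 2 highest. BBX19 (Unigene0047568), which binds CO in Arabidopsis, went from 18.5 to 2.92 RPKM (-2.68).

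Among the higher unigenes, 2 are described as B-box zinc finger protein 20 and had few reads in NL. Unigene0028966 went from 5 reads in NL to 394 reads in L2, and Unigene0028550 from 14 to 148 reads. The remaining one (Unigene0038005, 4.35 to 14.0 RPKM) is described as a salt tolerance protein 5-like protein but carries the symbol BOB1, which is not that of a B-box gene. The count of 3 higher became 2 with a pseudocount of 0.01, with DESeq2, and without L2 replicate 2 or L2 replicate 3, and the count of 6 lower became 5 without L2 replicate 1.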
